A study of Mus musculus with 40 samples.

Results

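The comparison described here is that of IDR-1018 given before lipopolysaccharide (LPS) against LPS alone in the neonatal mouse brain. It rests on 10 of the 40 arrays of the series, the 5 titled for LPS with the peptide (LPS with IDR) and the 5 titled for LPS only (LPS). For each of 19937 genes, the probe set with exactly 1 gene symbol and the highest mean over the 40 arrays was taken, out of 34760 probe sets. All mice were C57/Bl6 at postnatal day 9, no genetic alteration is labelled, and those of both groups compared had no hypoxia-ischaemia. LPS mice received LPS 6 h before the brain was removed, and their labels name no vehicle injection. LPS with IDR mice received the peptide 4 h before LPS and their brains were removed 6 h after it, so that the peptide was given 10 h before removal. For reference, Vehicle and IDR mice (5 arrays each) received vehicle or peptide alone 10 h before removal, and 20 further arrays, 5 in each of 4 groups, came from mice with hypoxia-ischaemia (HI). Those mice had vehicle or IDR-1018 4 h before LPS and HI 14 h after LPS; at 6 h from HI the left, injured and the right, uninjured hemisphere were taken as separate groups. The labels give neither the sex nor the dose, nor whether 1 animal supplied 1 array, so p-values measure the spread between these samples only.

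LPS is recognised by the receptor Tlr4 with its partners Cd14, Ly96 (MD-2) and Lbp. The adaptor Myd88 leads from there to NF-kB and to cytokines such as Tnf and Il6, and the adaptor Ticam1 (TRIF) leads to type I interferon, which acts through STAT proteins and interferon regulatory factors on a large set of antiviral genes. Interferon gamma induces guanylate-binding proteins (Gbp) and immunity-related GTPases (Iigp1, Irgm1). IDR-1018 is a synthetic innate defence regulator, a cationic peptide derived from a bovine host defence peptide and studied for its effects on immune cells. The comparison asks whether giving it first altered the transcripts of the brain after LPS.

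No gene passed the test. With limma and Benjamini-Hochberg adjustment over 19937 genes, 0 genes (0%) had an adjusted p under 0.05, and the smallest adjusted p was 0.0904, for C1qtnf9. At an unadjusted p under 0.05 there were 2674 genes (13.4%), against 997 that the threshold alone would give, with 1067 higher (5.35%) and 1607 lower (8.06%) with the peptide. Every array of 1 group lay above every array of the other for 550 genes (2.76%), 232 higher (1.16%) and 318 lower (1.6%). The differences were small: 12 genes outside the sex-linked ones differed by more than 1.5-fold, and the whole 95% interval of the log2 fold change lay within 0.5 of 0 for 97.6% of genes and within 1 for 99.9%. The median log2 fold change over all genes was -0.02, the value beside which the medians below are to be read. List counts at an unadjusted p under 0.05 are likewise to be read beside 5.35% higher and 8.06% lower. Changes are log2 differences of RMA signals, LPS with IDR minus LPS, with standard errors, and group means carry standard deviations (n = 5).

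The array sets differed in other ways that touch these values. All 5 LPS arrays had high Xist, the transcript of the inactive X chromosome, at 11.82 to 12.15 on the log2 scale, and the Y-linked Uty, Kdm5d and Eif2s3y at 3.51 to 5.01. Of the LPS with IDR arrays, 2 (numbers 3 and 4) were of this kind and 3 (numbers 1, 2 and 5) had Xist at 5.21 to 5.54 and the Y-linked genes at 8.38 to 9.68, so that sex and pretreatment were partly confounded. Fitting the Xist level as a covariate left 1612 genes at an unadjusted p under 0.05, and using only the 7 high-Xist arrays left 1165. Limma called 0 genes in both. As all LPS arrays had high Xist, the peptide difference in both settings rests mainly on LPS with IDR arrays 3 and 4. Their values were close, such as 0.4778 and 0.4795 for Tlr7. Wherever they are given below, the 2 settings are not separate checks. LPS arrays 1 and 5 also stood apart on the first principal component (33.2% of the variance) and had the highest mean signals of ribosomal protein genes, 10.50 and 10.59, against 10.26 to 10.36 in the other 8 arrays. Without array 5 the unadjusted count was 1630, without array 1 it was 1751, and without both it was 1131. Higher and lower genes numbered 391 and 740 without both and 647 and 965 with the Xist covariate, the counts beside which list counts under those settings are to be read. Astrocyte markers averaged 10.29 to 10.46 and excitatory neuron markers 10.21 to 10.39 in all 10 arrays, as in brain, and neutrophil markers 5.13 to 5.43. Array 5 of the LPS group read 10.85 for Gh, the growth hormone transcript of the pituitary, and the other 9 arrays 5.98 to 6.43.

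Genes were also described by what LPS itself did to them. The LPS effect averaged over both pretreatments, from the 20 arrays without HI, was used to choose them. It contains the 10 arrays of the peptide comparison, and where one of these groups spreads more than the other, as the antiviral genes do, a gene can be chosen through high arrays of that group; the counts that follow are therefore a description and support no direction. The averaged effect called 566 genes (2.84%), of which 359 rose (1.8%) and 207 fell (1.04%) with LPS. Of the 359, 261 had a higher mean in LPS with IDR than in LPS, with a median difference of 0.08, where 44.1% of all genes had a higher mean. At an unadjusted p under 0.05, 96 of the 359 were higher and 8 lower. Of the 207 that LPS lowered, 150 had a lower mean with the peptide (median -0.06), with 5 higher and 32 lower. Without LPS arrays 1 and 5 the medians were 0.10 and -0.06; with the Xist covariate they were 0.07 and -0.01, and the counts were 47 higher with 8 lower and 2 higher with 8 lower.

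Among interferon-responsive genes, 29 of 36 antiviral genes (80.6%) had a higher mean with the peptide, where 44.1% of all genes did. For the interferon-inducible GTPases it was 4 of 10 (40%), near the share of all genes. Of 39 antiviral interferon-stimulated genes listed, 36 were analysed here. The averaged LPS effect, which includes the LPS with IDR arrays, was called higher for 30 of the 36, and LPS against Vehicle for 22. With the peptide the median difference was 0.17. At an unadjusted p under 0.05 there were 7 higher and 0 lower, where 5.35% of all genes were higher. Of 18 GTPases listed 10 were measured. The averaged LPS effect was called higher for 9 of them, with a median of 1.33, and LPS against Vehicle for 7. The median difference with the peptide was -0.04, with none at an unadjusted p under 0.05. The mean over the antiviral list was 7.47, 7.40, 7.19, 7.30 and 7.28 in LPS arrays 1 to 5 and 7.35, 7.72, 7.76, 7.14 and 7.52 in LPS with IDR arrays 1 to 5. Arrays 2, 3 and 5 with the peptide lay above every LPS array, and array 4 lay below every one. The same list read 6.56 to 6.67 in Vehicle. With the Xist covariate the median of the antiviral list was 0.14 with 3 higher and 0 lower, that of the GTPases -0.18; without LPS arrays 1 and 5 the antiviral median was 0.16 with 4 higher.

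**Figure D1:**
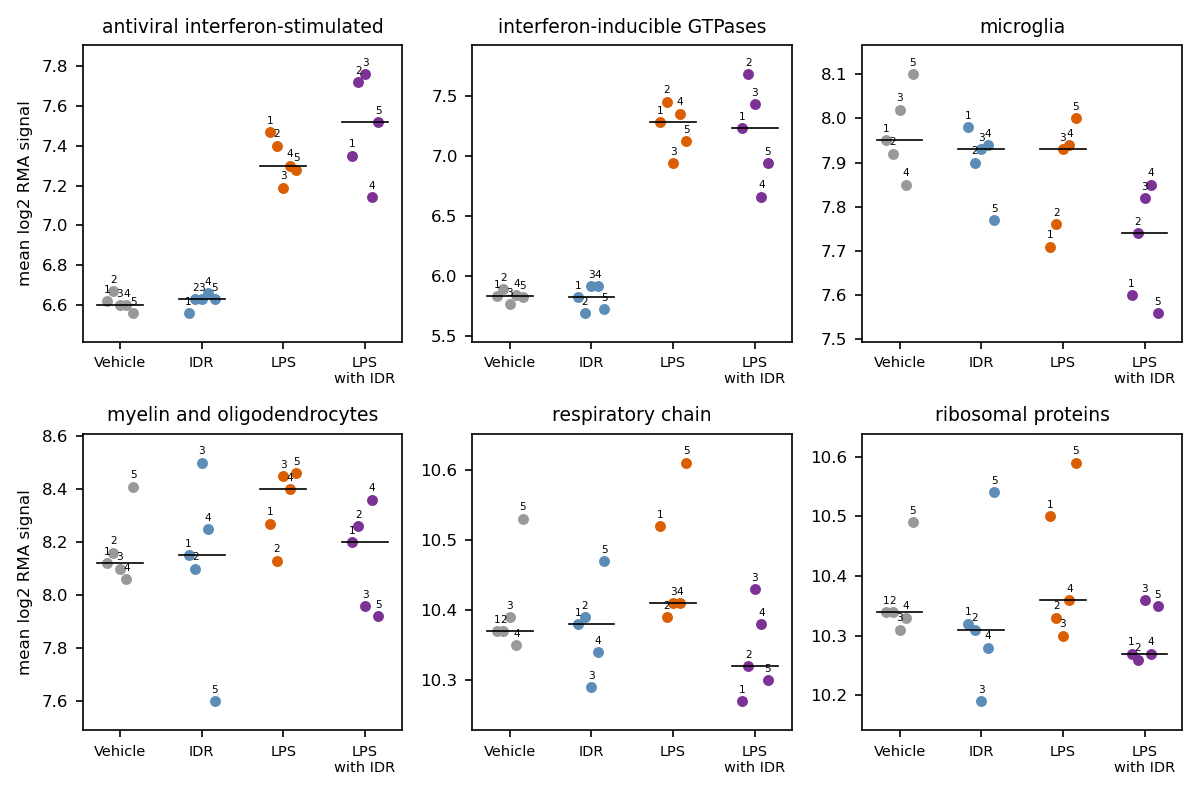
Mean log2 RMA signal of 6 gene lists in each array of the 4 groups without hypoxia-ischaemia; each point is 1 array with its number and the line is the group median. Both interferon lists are far above Vehicle in both LPS groups, LPS with IDR arrays range from 7.14 to 7.76 for the antiviral list, and LPS arrays 1 and 5 have the highest ribosomal and respiratory chain means of the 10 arrays given LPS.

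Among the antiviral genes, Trim30a, an interferon-induced regulator of NF-kB signalling, had the smallest p. It read 8.23, 8.30, 8.01, 8.13 and 8.05 in LPS arrays 1 to 5 and 8.45, 8.99, 8.99, 8.19 and 8.58 in LPS with IDR arrays 1 to 5. Only array 4 of the peptide group lay within the LPS range. The difference was 0.49 ± 0.13 (95% interval 0.20 to 0.79, adjusted p = 0.326), beside a mean of 6.63 ± 0.17 in Vehicle. Herc6, an interferon-induced ubiquitin ligase, differed by 0.37, Ifih1 (MDA5, a sensor of viral RNA) by 0.28 and Eif2ak2 (PKR, a kinase activated by double-stranded RNA) by 0.33, each with an adjusted p of 0.326. Rsad2 (viperin), named after its values were seen, had the widest difference of the list. It read 7.0, 6.64, 6.35, 6.57 and 6.55 in LPS and 7.18, 7.63, 7.47, 6.21 and 8.22 in LPS with IDR, so that 4 of 5 peptide arrays exceeded every LPS array. Its difference was 0.72 ± 0.27 (0.13 to 1.31, adjusted p = 0.333). It was 0.25 with the Xist covariate and 0.22 in the high-Xist arrays alone, settings that both rest mainly on peptide arrays 3 and 4.

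The Ifit genes encode proteins that bind viral RNA, and 2 of them were among the 12 genes with the highest LPS effect. Ifit3 read 8.67, 8.24, 7.61, 8.12 and 8.11 in LPS and 8.62, 9.33, 9.09, 7.60 and 8.83 in LPS with IDR. Ifit1 read 7.85, 7.82, 7.36, 7.65 and 7.54, against 7.91, 8.59, 8.62, 7.14 and 8.35. In both genes arrays 2, 3 and 5 of the peptide group were the highest of all 10 and array 4 the lowest. The difference was 0.54 ± 0.27 for Ifit3 (-0.04 to 1.12, adjusted p = 0.390) and 0.48 ± 0.23 for Ifit1 (-0.01 to 0.98, adjusted p = 0.380), and with the Xist covariate they were 0.21 and 0.26. LPS against Vehicle, which shares the LPS arrays, gave 1.87 and 1.81, and LPS with IDR against IDR gave 2.49 and 2.19. Oasl2, Rtp4 and Sp100, also antiviral genes among the 12, differed by 0.18, 0.25 and 0.18, and Ifitm3, a membrane protein that restricts virus entry, by -0.18; the last was 0.065 with the ribosomal mean as covariate and 0.052 without LPS arrays 1 and 5. Usp18, which removes Isg15 from proteins and dampens the interferon receptor, differed by 0.45 ± 0.22 and Ifi203, a member of the interferon-activated p200 family, by 0.65 ± 0.24, both named after their values were seen.

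The GTPases varied as widely between arrays but not in 1 direction. Gbp4 read 8.14, 8.55, 7.96, 8.83 and 8.09 in LPS and 8.07, 8.81, 8.65, 6.83 and 7.17 in LPS with IDR. Arrays 4 and 5 of the peptide group fell below the LPS range and the other 3 within it, giving a difference of -0.41 ± 0.33 (-1.13 to 0.31, adjusted p = 0.591). Iigp1, which attacks the vacuoles of intracellular parasites, read 7.54, 7.96, 6.97, 7.42 and 7.21 against 7.72, 8.26, 7.68, 6.33 and 6.91. Irgm1, a regulator of those GTPases and of autophagy, read 8.88, 9.29, 8.58, 9.00 and 8.81 against 8.83, 9.41, 9.30, 8.40 and 8.47, and Gbp5 6.77, 6.82, 6.09, 6.77 and 6.44 against 6.27, 7.16, 6.66, 5.72 and 6.22. In all 4 genes array 4 with the peptide was the lowest of the 10. The differences of Iigp1, Irgm1 and Gbp5 were -0.04 ± 0.30, -0.03 ± 0.19 and -0.18 ± 0.22, with intervals of -0.68 to 0.60, -0.44 to 0.38 and -0.65 to 0.30. LPS had raised them by 2.47, 2.13 and 2.00 over Vehicle. Probes for genes of the Gbp, Ifit and Trim30 families may also detect close relatives, which these values cannot separate.

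**Figure D2:**
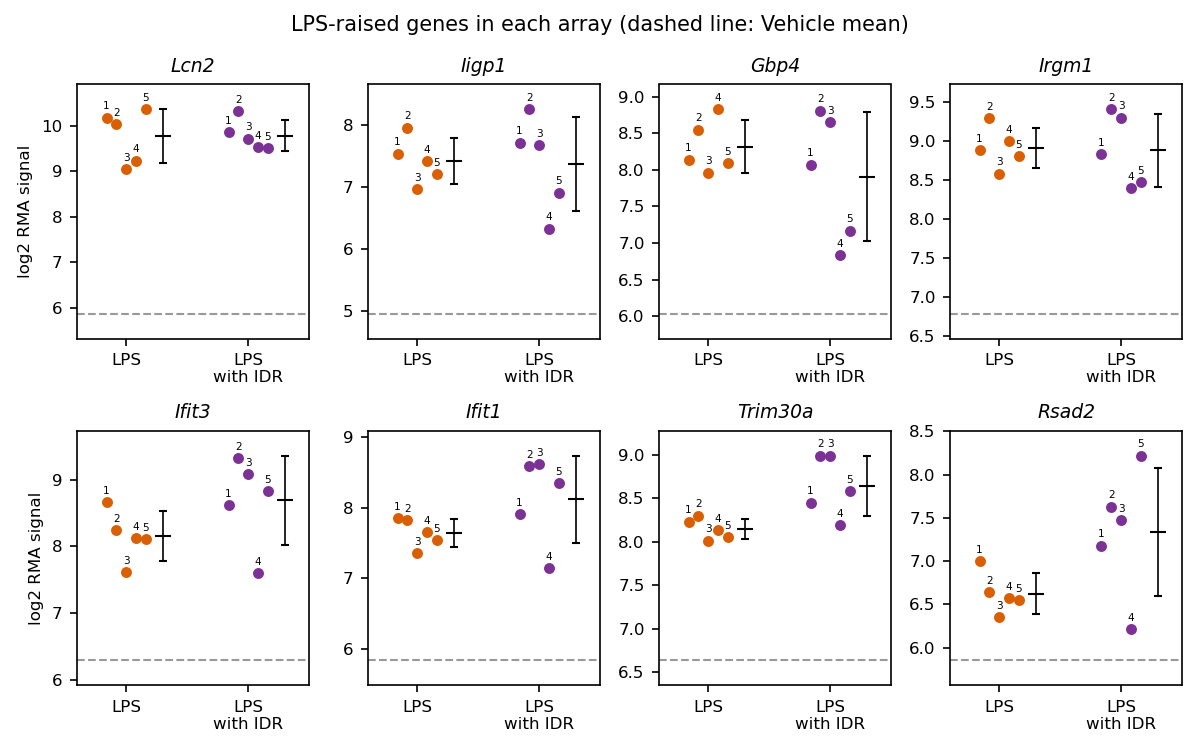
Log2 RMA signal of 8 genes that LPS raised, in LPS (orange) and LPS with IDR (purple); points are arrays with their numbers, the bar is the mean ± SD (n = 5) and the dashed line the Vehicle mean. Every array lies above the Vehicle mean, and for all but Lcn2 the peptide arrays spread further apart, with array 4 the lowest of them.

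The spread between arrays was greater with the peptide for most strongly LPS-raised genes. Of the 36 genes raised more than 2-fold in the averaged LPS effect, 32 (88.9%) had a larger standard deviation with the peptide. The medians were 0.38 in LPS with IDR and 0.22 in LPS. Among the antiviral genes it was larger in 28 of 36 and among the GTPases in 9 of 10. Over all genes the spread was larger with the peptide in 37% (median 0.10, against 0.12 in LPS). Genes of 1 array share its RNA, so these counts describe 5 arrays and not separate events. The 36 genes were also chosen by an averaged effect that contains these arrays. All 5 LPS arrays had high Xist, while the peptide group held 2 such arrays and 3 with Y-linked signal. The part of sex in the spread was not tested.

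Promoters of the interferon-responsive genes on both sides of this contrast are shown so that their regulatory letters can be set beside the values. The 250 bases before the annotated start were taken from RefSeq on GRCm38.p6 and searched on both strands for an interferon-stimulated response element, GAAANNGAAA, and a STAT site, TTCNNNGAA, matches being in capitals (TTTCNNTTTC is the first on the other strand). The first was present in 2.97% of 32817 promoters and the second in 7.01%. Of 26 antiviral genes with a promoter in the table, 8 (30.8%) held the first and 4 the second, and of 5 GTPases 5 and 2 did; the motifs overlapped in 17 promoters of the table. Rsad2, Ifit1 and Ifit3 are antiviral genes with a higher mean with the peptide, and Gbp5 and Irgm1 are GTPases without one. Each promoter shown holds the first motif. Bst2 (-0.23), Oas3 (-0.15) and Stat2 (-0.03) are antiviral genes with that motif and a lower mean, and their promoters are not shown.
Rsad2, chr12:26456453-26456702, minus strand: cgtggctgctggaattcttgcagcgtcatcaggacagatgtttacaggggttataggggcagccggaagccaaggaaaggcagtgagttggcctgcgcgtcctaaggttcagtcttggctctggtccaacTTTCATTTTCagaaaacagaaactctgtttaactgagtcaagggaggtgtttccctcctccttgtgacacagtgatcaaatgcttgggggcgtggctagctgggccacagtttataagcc
Ifit1, chr19:34640639-34640888, plus strand: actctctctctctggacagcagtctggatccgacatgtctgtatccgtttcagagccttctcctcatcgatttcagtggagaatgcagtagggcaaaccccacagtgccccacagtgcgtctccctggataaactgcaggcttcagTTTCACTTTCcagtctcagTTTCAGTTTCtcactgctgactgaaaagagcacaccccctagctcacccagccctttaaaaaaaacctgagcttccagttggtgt
Ifit3, chr19:34583279-34583528, plus strand: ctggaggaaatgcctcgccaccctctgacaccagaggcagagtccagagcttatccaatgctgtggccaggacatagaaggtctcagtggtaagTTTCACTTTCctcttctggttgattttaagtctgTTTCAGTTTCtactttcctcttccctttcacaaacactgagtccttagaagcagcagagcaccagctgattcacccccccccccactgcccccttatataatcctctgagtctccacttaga
Gbp5, chr3:142496684-142496933, plus strand: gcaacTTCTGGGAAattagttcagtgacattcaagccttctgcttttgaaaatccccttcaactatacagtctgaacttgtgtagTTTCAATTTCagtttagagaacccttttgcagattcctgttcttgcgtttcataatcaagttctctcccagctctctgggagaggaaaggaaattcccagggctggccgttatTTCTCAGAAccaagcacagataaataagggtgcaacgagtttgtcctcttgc
Irgm1, chr11:48871421-48871670, minus strand: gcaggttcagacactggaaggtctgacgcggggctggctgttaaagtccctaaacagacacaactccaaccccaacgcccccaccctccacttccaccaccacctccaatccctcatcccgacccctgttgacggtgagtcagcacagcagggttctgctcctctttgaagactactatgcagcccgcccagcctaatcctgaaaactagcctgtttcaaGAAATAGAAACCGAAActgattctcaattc
The Irgm1 capitals hold 2 overlapping matches, and Gbp5 is the one shown with both motifs. Antiviral genes with the first motif had a median difference of 0.28 (8 genes, 5 above 0) and those without it 0.17 (18 genes, 16 above 0). A match is a run of letters in this window and not a measured site.

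Components that sense LPS had a median difference of 0.00, beside -0.02 for all genes. Of 17 measured members of the sensing and signal transduction list, 3 were higher and 0 lower at an unadjusted p under 0.05. Among all genes 5.35% were higher and 8.06% lower. Lbp, which transfers LPS to Cd14, read 8.47, 8.64, 8.74, 8.74 and 8.67 in LPS and 9.33, 9.16, 8.64, 8.86 and 8.82 in LPS with IDR. Peptide arrays 1, 2, 4 and 5 exceeded every LPS array, and the difference was 0.31 ± 0.11 (adjusted p = 0.327), which was 0.10 with the Xist covariate and 0.097 in the high-Xist arrays alone. Tlr4 itself differed by 0.16 and Traf6, a ubiquitin ligase on the path to NF-kB, by 0.18, with adjusted p of 0.352 and 0.336. Without LPS arrays 1 and 5, or with the Xist or ribosomal covariate, 1 of the 17 was higher at the unadjusted threshold.

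Tlr7, the endosomal receptor for single-stranded RNA and no part of that list, had the second smallest p among genes higher with the peptide. It read 6.26, 6.48, 6.38, 6.48 and 6.55 in LPS and 6.85, 6.64, 6.85, 6.97 and 6.85 in LPS with IDR, and the groups did not overlap. The difference was 0.40 ± 0.07 (0.25 to 0.56, adjusted p = 0.326). Tlr7 lies on the X chromosome; within the high-Xist arrays the difference was 0.48. Peptide without LPS gave -0.10 against Vehicle, and the difference of these differences was 0.51 (adjusted p = 0.86 in limma).

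Cytokines and chemokines showed no gene higher and 3 of 23 lower at an unadjusted p under 0.05, where 8.06% of all genes were lower. Their median of -0.07 was 0.00 without LPS arrays 1 and 5 and -0.15 with the Xist covariate. Tnf read 5.80, 5.64, 5.70, 5.65 and 5.76 in LPS and 5.46, 5.63, 5.26, 5.31 and 5.48 in LPS with IDR. All 5 peptide arrays lay below all LPS arrays, by a mean of 0.28 (difference -0.28 ± 0.07, interval -0.44 to -0.13, adjusted p = 0.326), and Vehicle was at 5.52 ± 0.21, between the group means. The Tnf signal is low, with means of 5.71 ± 0.07 in LPS and 5.43 ± 0.15 in LPS with IDR. Ccl19, a chemokine for dendritic cells and lymphocytes, differed by -0.45 ± 0.13 (adjusted p = 0.326), but its 4 probe sets disagreed, with -0.45, -0.22, 0.52 and -0.29. The neuronal chemokine Cx3cl1 differed by -0.20. Cxcl10, an interferon-induced chemokine named after its values were seen, read 7.79, 7.72, 6.14, 6.51 and 7.44 against 6.41, 7.88, 6.36, 5.73 and 6.28. Array 2 alone of the peptide group reached the 3 high LPS arrays, and the difference of -0.59 ± 0.38 had an interval from -1.41 to 0.24. It was -1.06 with the Xist covariate and -0.26 without LPS arrays 1 and 5.

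A list of NF-kB feedback and anti-inflammatory genes, which holds cytokines and receptors such as Il10, Il1rn and Il4ra beside inhibitors of NF-kB, had a median of -0.06, with 0 of 17 higher and 1 lower, where 8.06% of all genes were lower. The lower count was 0 without LPS arrays 1 and 5 and 3 with the Xist covariate. The 1 lower gene was Socs1, an inhibitor of interferon receptor signalling, at 7.62, 7.30, 7.42, 7.28 and 7.41 in LPS and 7.26, 7.25, 7.06, 7.27 and 7.22 in LPS with IDR. Its groups did not overlap but adjoined, at 7.27 and 7.28; the difference was -0.20 ± 0.07 (adjusted p = 0.326). Nfkbiz, an atypical IkB protein, differed by 0.11, and Tnfaip3 (A20), a deubiquitinase that limits NF-kB, by -0.10. In the list of antigen loading and immunoproteasome genes, 0 of 10 were higher and 2 lower, where 8.06% of all genes were lower. The 2 were the proteasome activator Psme1 at -0.32 ± 0.10 and the immunoproteasome subunit Psmb8 at -0.20 ± 0.07. The list median was -0.09. Without LPS arrays 1 and 5 it was -0.03 with neither at the unadjusted threshold, and with the Xist covariate -0.15 with 1 lower.

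Acute phase genes gave 2 of 15 higher and 0 lower, with a median of 0.01, where 5.35% of all genes were higher and 8.06% lower. Lcn2, an iron-trapping protein and the gene that LPS raised most, read 10.17, 10.03, 9.04, 9.23 and 10.36 in LPS and 9.86, 10.32, 9.71, 9.52 and 9.50 in LPS with IDR. The groups overlapped fully, with a difference of 0.01 ± 0.24 (-0.51 to 0.53) beside an LPS effect of 3.90 over Vehicle; the sign turned with the Xist covariate, to -0.15. Cp (ceruloplasmin), a copper-carrying ferroxidase, read 8.09, 8.20, 8.12, 8.29 and 8.13 against 8.76, 8.90, 8.42, 8.37 and 8.30. Its groups did not overlap and the difference was 0.38 ± 0.11 (0.15 to 0.61, adjusted p = 0.326). Serpina3n, a protease inhibitor of reactive astrocytes, differed by 0.46 ± 0.15 and Steap4, a metalloreductase, by 0.42 ± 0.19. With the Xist covariate these 3 were 0.23, 0.24 and -0.11, and no member of the list was at the unadjusted threshold.

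Osmr, the oncostatin M receptor and a gene of reactive astrocytes, was among the genes with the smallest p. It read 8.31, 8.35, 8.19, 8.42 and 8.27 in LPS and 9.20, 8.82, 8.48, 8.72 and 8.91 in LPS with IDR, without overlap. The difference was 0.52 ± 0.11 (0.29 to 0.74, adjusted p = 0.326) on top of 0.69 for LPS over Vehicle, and 0.30 with the Xist covariate. Igfbp3, which binds insulin-like growth factors, read 9.11, 9.03, 8.95, 8.96 and 9.20 against 9.40, 9.36, 9.22, 9.46 and 9.38. Its peptide arrays all lay above the LPS arrays, by 0.31 ± 0.07 on average, where LPS over Vehicle gave 0.50.

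In the complement cascade the subunits of C1 had differences of opposite sign. C1s1, a serine protease of C1, read 4.55, 4.52, 4.49, 4.56 and 4.62 in LPS and 4.85, 4.88, 5.20, 4.81 and 4.90 in LPS with IDR. The groups did not overlap and the difference was 0.38 ± 0.07 (0.23 to 0.53, adjusted p = 0.326), at a low signal where Vehicle read 4.69 ± 0.16. C1qa and C1qc, recognition subunits made in brain mainly by microglia, differed by -0.23 ± 0.07 and -0.27 ± 0.09. They and C1s1 were the 1 higher and 2 lower of the 14 complement genes measured, whose median was 0.03. Among all genes 5.35% were higher and 8.06% lower. Without LPS arrays 1 and 5, or with the Xist or ribosomal covariate, 0 of the 14 were lower and 1 was higher. With the Xist covariate C1qa was at -0.12, C1qc at -0.10 and C1s1 at 0.46.

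Genes that respond to glucocorticoids, the stress hormones that curb inflammation, had a median of 0.07. Of the 15, 4 were higher and 0 lower, where 5.35% of all genes were higher. Pdk4, a kinase that restrains glucose oxidation, read 7.86, 7.84, 7.76, 7.90 and 7.80 in LPS and 8.02, 8.10, 7.84, 8.21 and 8.41 in LPS with IDR. Array 3 alone of the peptide group lay within the LPS range, and the difference was 0.29 ± 0.09 (adjusted p = 0.326). Sult1a1, a sulfotransferase, differed by 0.26, Fkbp5, a chaperone of the glucocorticoid receptor, by 0.24 and the kinase Sgk1 by 0.12. Without LPS arrays 1 and 5 the count was 5 higher, and with the Xist covariate it was 1 higher and 1 lower. The averaged LPS effect, which includes the LPS with IDR arrays, was called higher for 11 of the 15, and LPS against Vehicle for 8. Immediate early genes, which follow neuronal activity, had a median of -0.11. Of the 19, 0 were higher and 5 lower, where 8.06% of all genes were lower. Among the 5 were Egr3 (-0.24), Atf3 (-0.22), Egr1 (-0.21) and Arc (-0.19). Without LPS arrays 1 and 5 the median was -0.05 with 2 lower, and with the Xist covariate it was also -0.05 with 2 lower.

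**Figure D3:**
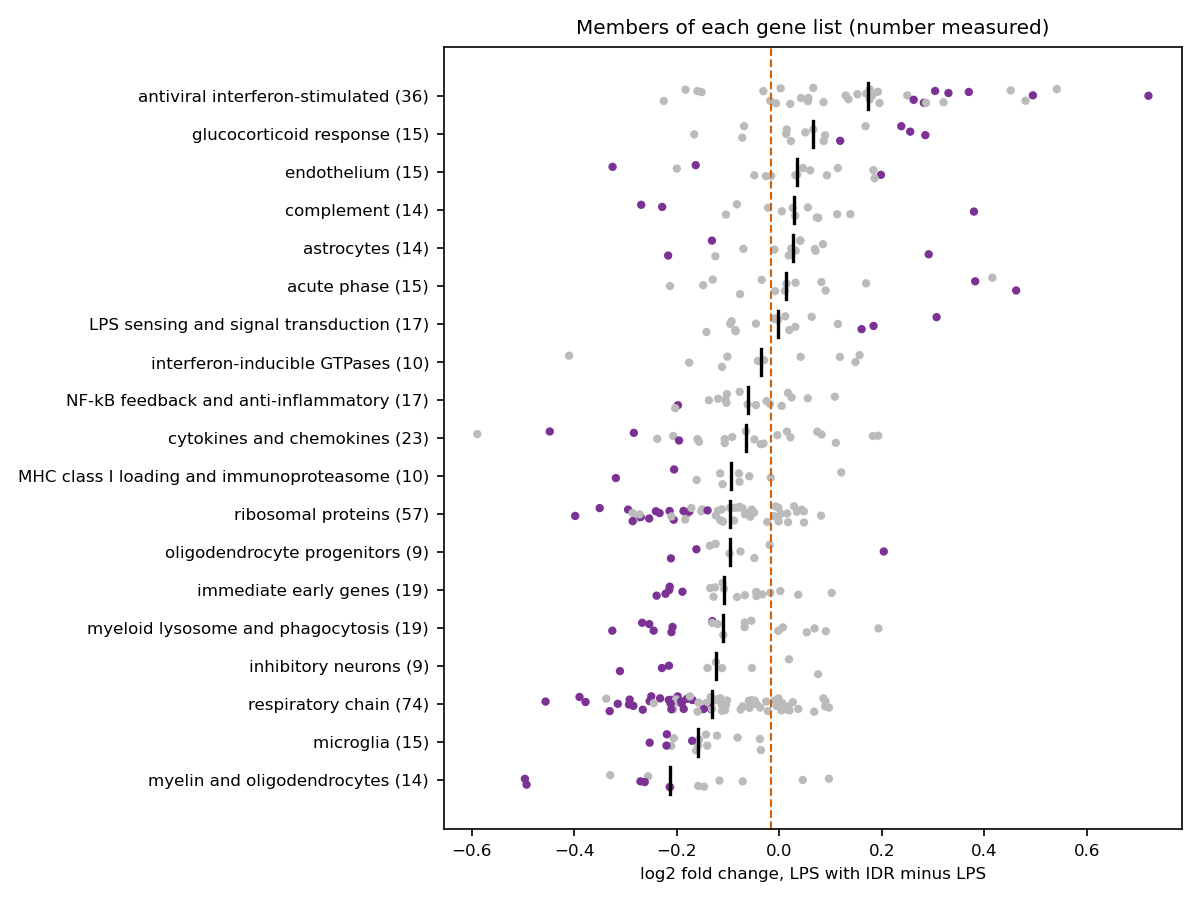
Log2 fold change (LPS with IDR minus LPS) of each measured member of 19 gene lists; purple points have an unadjusted p under 0.05, black lines are list medians and the dashed line is the median of all genes at -0.02. The antiviral list has the highest median, 0.17, and the myelin list the lowest, -0.21.

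Microglial markers had slightly lower means with the peptide. All 15 measured had a lower mean with the peptide, where 44.1% of all genes had a higher one. The median was -0.16. At an unadjusted p under 0.05, 0 were higher and 4 lower, where 8.06% of all genes were lower. The list mean read 7.71, 7.76, 7.93, 7.94 and 8.00 in LPS and 7.60, 7.74, 7.82, 7.85 and 7.56 in LPS with IDR. The groups overlapped, and arrays 1 and 5 with the peptide were the lowest of the 10. Sall1, a transcription factor of microglial identity, differed by -0.22 ± 0.07, Aif1 (IBA1) by -0.25 ± 0.09, the receptor-like Fcrls by -0.22 and the fructose transporter Slc2a5 by -0.17, with adjusted p between 0.326 and 0.347. With the Xist covariate the median was -0.05 with 1 lower, and without LPS arrays 1 and 5 it was -0.17 with 2 lower. In whole brain, fewer cells of a type and less RNA per cell cannot be told apart.

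Of 19 genes of myeloid lysosomes and phagocytosis, 0 were higher and 7 lower, with a median of -0.11, where 8.06% of all genes were lower. Laptm5, a lysosomal membrane protein of blood-derived cells and microglia, read 9.24, 9.22, 9.06, 9.17 and 9.34 in LPS and 8.77, 8.85, 9.08, 8.99 and 8.69 in LPS with IDR. Array 3 of the peptide group lay just inside the LPS range and the other 4 below it, with a difference of -0.33 ± 0.08 (-0.50 to -0.16, adjusted p = 0.326). The lysosomal marker Cd68 differed by -0.24, the Fc receptor chain Fcer1g by -0.27 and the leukocyte surface protein Cd52 by -0.21. With the Xist covariate 0 of the 19 were lower (median -0.06), and without LPS arrays 1 and 5 there were 3 (median -0.08).

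Myelin genes had the lowest median of the 19 lists described, -0.21, with 12 of 14 below 0, 0 higher and 5 lower. Above 0 were 14.3% of them and 44.1% of all genes, and 8.06% of all genes were lower. Mag, an adhesion protein of the innermost myelin layer, read 9.21, 8.70, 9.24, 9.33 and 9.82 in LPS and 8.82, 9.08, 8.48, 9.15 and 8.30 in LPS with IDR. Mobp, a structural myelin protein, read 8.65, 7.91, 8.59, 8.59 and 8.94 against 8.16, 8.36, 7.57, 8.43 and 7.69. In both, arrays 3 and 5 with the peptide were the lowest and LPS array 5 the highest. The differences were -0.49 ± 0.19 and -0.50 ± 0.19 (adjusted p = 0.334 for both), beside -0.26 for Ermn and -0.21 for Cnp. The list mean ranged from 7.92 to 8.46 over both LPS groups, from 7.60 to 8.50 in the 5 IDR arrays and from 8.06 to 8.41 in Vehicle. Without LPS arrays 1 and 5 the median was -0.17 with 1 lower, and with the Xist covariate it was -0.22 with 3 lower.

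Of 9 markers of the progenitors of that lineage, 8 had a lower mean, the median was -0.10, and 1 was higher and 2 lower. A higher mean was found for 11.1% of them and 44.1% of all genes, of which 5.35% were higher and 8.06% lower. The count was 1 higher and 0 lower without LPS arrays 1 and 5, and the same with the Xist covariate. Pdgfra, the receptor that defines these cells and the 1 member above 0, read 10.49, 10.54, 10.73, 10.61 and 10.47 in LPS and 10.89, 10.69, 10.75, 10.81 and 10.72 in LPS with IDR, higher by 0.20 ± 0.06 (adjusted p = 0.326) with arrays 2 and 5 inside the LPS range. The lineage transcription factors Sox10 and Olig2 differed by -0.21 and -0.16. Inhibitory neuron genes gave 0 of 9 higher and 3 lower with a median of -0.12, where 8.06% of all genes were lower. The 3 were the peptide transmitters Sst (-0.31 ± 0.11) and Npy (-0.23) and the vesicular transporter of inhibitory transmitters, Slc32a1 (-0.22). Without LPS arrays 1 and 5, or with the Xist covariate, none of the 9 was lower. Astrocyte markers had a median of 0.03, with Gjb6, a gap junction protein, at 0.29 and S100b at -0.22.

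Endothelial markers had a median of 0.04, with 1 of 15 higher and 2 lower, where 5.35% of all genes were higher and 8.06% lower. Aplnr, the apelin receptor of growing vessels and a gene that LPS lowered, read 8.02, 8.17, 8.40, 8.26 and 8.14 in LPS and 7.62, 8.06, 8.19, 7.69 and 7.82 in LPS with IDR. The groups overlapped, with a difference of -0.33 ± 0.11 (-0.56 to -0.09, adjusted p = 0.326) beside an LPS effect of -0.43. Tek (Tie2), the angiopoietin receptor, was the gene LPS lowered most and differed by 0.06 ± 0.16, which was -0.066 with array weights, -0.065 with the ribosomal covariate and -0.14 without LPS arrays 1 and 5. Among the other LPS-lowered genes with the largest effects, the iron exporter Slc40a1 and the adhesion receptor Adgre5 differed by -0.21 and -0.20, Slc16a4, of the monocarboxylate transporter family, by -0.10 and Rasgrp3, a Ras activator, by -0.03. With the Xist covariate these 4 were 0.0014, -0.016, 0.23 and 0.13.

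Housekeeping genes had lower medians with the peptide. Ribosomal protein genes had a median of -0.10 with 0 of 57 higher and 13 lower, where 8.06% of all genes were lower. Respiratory chain genes had a median of -0.13 with 0 of 74 higher and 26 lower. Without LPS arrays 1 and 5 the 2 lists were at -0.03 with 1 lower and -0.07 with 9 lower, and with the Xist covariate at -0.09 and -0.06 with 2 lower in each. The parts of sex and of those arrays in these counts were not tested separately. Ndufa8, a subunit of complex I, read 10.96, 10.87, 10.83, 10.90 and 10.97 in LPS and 10.66, 10.64, 10.80, 10.77 and 10.67 in LPS with IDR, without overlap, a difference of -0.20 ± 0.05 (adjusted p = 0.326). Uqcrq, of complex III, and Cox7a1, of complex IV, both differed by -0.29.

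The 12 genes with the smallest p in each direction were named whether or not they stood in a list. Eef2k, the kinase that slows peptide elongation, headed those higher with the peptide. It read 8.59, 8.84, 8.79, 8.88 and 8.57 in LPS and 9.32, 9.22, 9.10, 9.14 and 9.30 in LPS with IDR, without overlap (0.48 ± 0.07, interval 0.32 to 0.64, adjusted p = 0.203), but its other probe set gave 0.02. Slc6a20a, an amino acid transporter of choroid plexus and meninges, read 9.09, 9.45, 9.68, 9.66 and 9.34 against 10.24, 9.79, 9.77, 10.05 and 10.23, also without overlap (0.57 ± 0.12). The others of the 12 were Atp10a, a lipid flippase, at 0.26, Mc4r, the melanocortin receptor that controls appetite, at 0.28, Ap4e1, of a vesicle adaptor complex, at 0.32, Clca3a1 at 0.36, Zfp330 at 0.31 and the X-linked Cfap47 at 0.36. Prg4 (lubricin), named after its values were seen, had the largest positive difference outside the sex-linked genes, 0.85 ± 0.25 (adjusted p = 0.326), with 6.31, 5.80, 6.21, 6.44 and 6.32 in LPS and 8.17, 6.83, 6.47, 6.76 and 7.09 in LPS with IDR. Array 1 of the peptide group was the highest, all 5 lay above the LPS arrays, and with the Xist covariate the difference was 0.42.

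Among genes lower with the peptide, C1qtnf9, an adiponectin-related secreted protein, came closest to the threshold. It read 5.09, 5.03, 5.05, 4.98 and 5.11 in LPS and 4.67, 4.65, 4.54, 4.67 and 4.74 in LPS with IDR, without overlap, a difference of -0.40 ± 0.05 (-0.51 to -0.28, adjusted p = 0.0904). Its signal is low, and Vehicle (4.80 ± 0.25) lay between the groups. Tex24, a testis-expressed gene also of low signal, read 4.93, 4.51, 4.63, 4.57 and 4.61 against 4.14, 4.20, 4.27, 4.20 and 4.23 (-0.44 ± 0.07, adjusted p = 0.258). In a joint limma fit of the 4 groups without HI it was called (adjusted p = 0.0156). Overlap between the groups was absent for 11 of the 12 genes of this direction, the exception being H2bc3, whose peptide array 1 equalled the lowest LPS array at 8.11. These 12 were chosen by the smallest p of this same comparison, so their separation follows largely from the choice. Among all genes, 318 (1.6%) were lower without overlap. H2bc3 and H2bc14, histone H2B genes with near-identical copies that a probe set may not separate, differed by -0.45 and -0.31. Cdk2ap1, an inhibitor of a cell cycle kinase, differed by -0.33, the ribonuclease Rnasek by -0.48, Chchd10, a mitochondrial protein, by -0.32, the clathrin adaptor Ap1s1 by -0.29, the phosphomannomutase Pmm1 by -0.30, Vwa1, a matrix protein, by -0.32, Lrrc24 by -0.27 and the X-linked microRNA gene Mir542 by -0.29.

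**Figure D4:**
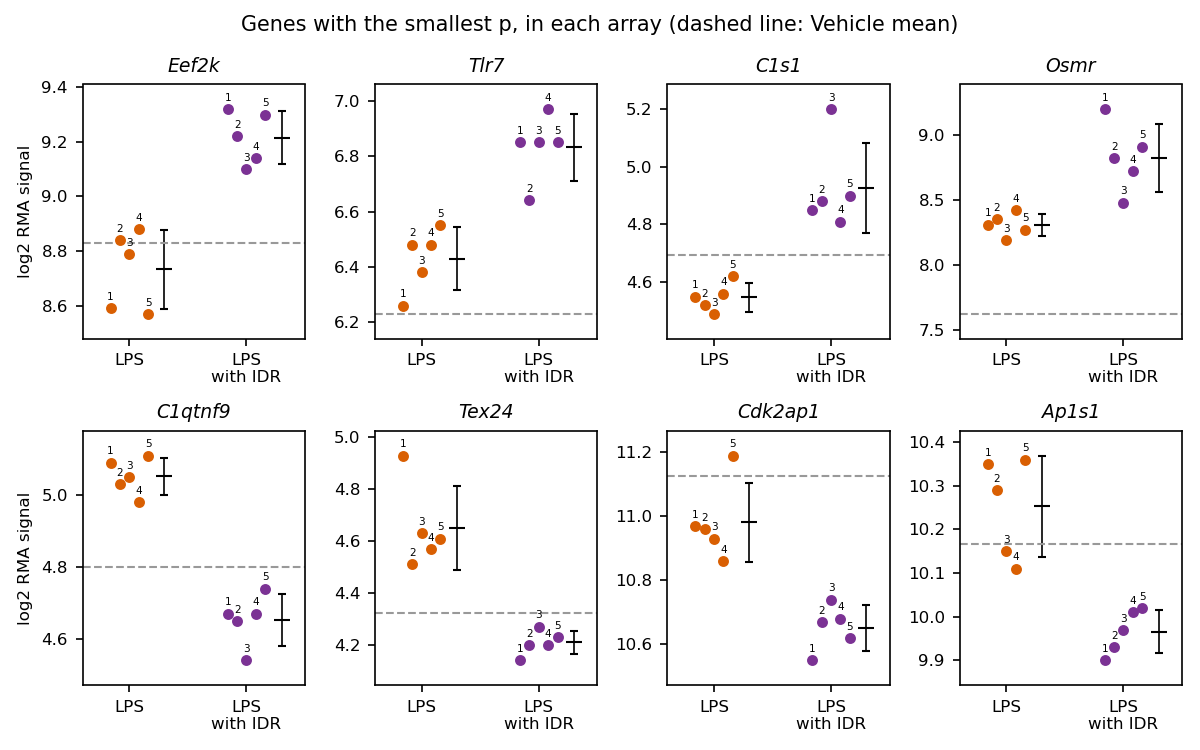
Log2 RMA signal of 8 of the genes with the smallest p, in LPS (orange) and LPS with IDR (purple); points are arrays with their numbers, the bar is the mean ± SD (n = 5) and the dashed line the Vehicle mean. In each panel the groups do not overlap, which follows largely from the choice of genes by their p. The mean differences run from -0.44 for Tex24 to 0.52 for Osmr.

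The direction of a difference went with the length of the gene. The 19855 genes with a RefSeq genomic length were divided into 5 classes of equal size. In the class of the shortest 1.96% were higher and 11.1% lower at an unadjusted p under 0.05, and in the longest 12% were higher and 2.42% lower. The median length was 51697 bp for genes that were higher, 8806 bp for those lower and 18003 bp for the rest, and Spearman's rho between length and log2 fold change was 0.29 across genes, which are not independent replicates and share the 10 arrays. The medians of the shortest and longest classes were -0.04 and 0.04, and without LPS arrays 1 and 5 they were -0.02 and 0.02. Ribosomal protein genes are short (median 3175 bp) and endothelial markers long (46246 bp). Antiviral genes had a median of 16978 bp, beside 17738 bp for all genes tested. From the shortest to the longest class their median differences were -0.18 (3 genes), 0.05 (8 genes), 0.14 (14 genes), 0.28 (8 genes) and 0.25 (3 genes), where all genes had -0.04, -0.05, -0.02, 0.0046 and 0.04. The antiviral medians were thus also higher in the longer classes, and the part of length in the list values was not tested.

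**Figure D5:**
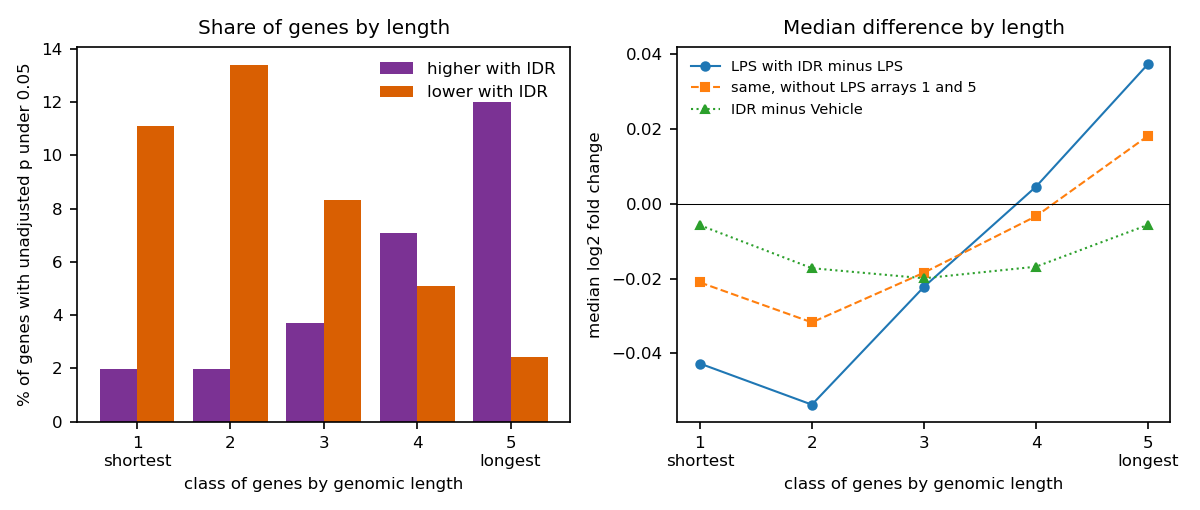
Left, share of genes with an unadjusted p under 0.05 that were higher or lower with the peptide, by class of genomic length; right, median log2 fold change by class for all arrays, without LPS arrays 1 and 5, and for IDR against Vehicle. The share that was lower falls from 11.1% in the shortest to 2.42% in the longest class, and the share that was higher goes from 1.96% to 12%.

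The peptide's difference was last set beside its differences in the other groups, which hold none of the 10 arrays. Without LPS, IDR against Vehicle gave 0 called genes (0%) and 321 at an unadjusted p under 0.05 (1.61%), and the antiviral list had a median of 0.01. The difference between the peptide effects with and without LPS, which uses the 10 arrays again, was called for 1 gene (0.00502%), Tex24, at -0.63 (limma adjusted p = 0.0146), with 873 at an unadjusted p under 0.05 (4.38%). That call was lost after quantile normalisation, with all probe sets, with all 8 groups in 1 fit, and without LPS with IDR array 1, IDR array 1 or Vehicle array 4, with values from -0.63 to -0.60, and Tex24 did not pass the low signal filter. For the antiviral list the median of that difference was 0.14, with no member called. After LPS and HI the antiviral list had medians of -0.14 in the uninjured and -0.09 in the injured hemisphere, and limma called 0 genes in either, with 376 (1.89%) and 277 (1.39%) at an unadjusted p under 0.05. Across 19928 genes, with the sex-linked ones left out, the log2 fold changes had Pearson's r of 0.09 with IDR against Vehicle, -0.12 with the uninjured and 0.09 with the injured hemisphere, values over genes of shared arrays given without a test. Of the 24 genes with the smallest p, 17, 11 and 11 had the same sign there, and 4, 0 and 0 had an unadjusted p under 0.05. The share of all genes with the same sign is not given here, so these counts support no repeat of the effect. High Xist without Y-linked signal was found in 1 IDR and 2 Vehicle arrays, and Y-linked signal with low Xist in 4 and 3.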

How the data were processed

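Total RNA of P9 mouse brain had been hybridised to Affymetrix arrays, and the deposited values are log2 signals made with RMA and the affy package, per the submitters' processing notes, which give no version. Because RMA makes the arrays' distributions equal, a change common to most genes cannot be seen. Values ran from 1.84 to 14.0, with array medians from 6.99 to 7.13 over 40 arrays; the number of arrays limits the precision (median 95% half-width 0.16 on the log2 scale). Gene symbols came from the platform's annotation, and 21640 probe sets had 1 symbol, 1321 several and 11799 none.

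The 2 groups were compared with limma 3.58.1 (lmFit, eBayes) in R 4.3.3 (the package data.table at 1.17.8), with no filter on signal. Adjusted p-values are Benjamini-Hochberg over 19937 genes. The procedure was tested on simulated data. Genes named were the 12 with the smallest p in each direction, the 12 with the highest and 6 with the lowest averaged LPS effect, up to 4 with the smallest p in each list described, and the gene called in the interaction; clone names and sex-linked genes were passed over, and Rsad2, Usp18, Cxcl10, Ifi203, Prg4 and Gh were added after their values were seen. The comparison, the tests and the 36 gene lists were chosen with earlier results of these data known; 19 lists are described. Alternatives covered normalisation, filters, probe set choice, model, covariates and leaving out arrays. Promoters and gene lengths came from RefSeq, GRCm38.p6.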

Additional observations from a re-analysis of the deposited data

Results flagged for a closer look

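Single arrays stood apart from the other 4 of their group by Dixon's criterion in 12 of the 278 groups of values examined (4.32%), where chance gives about 1 in 20. In the LPS group these were array 1 for Tex24 (4.93) and for the mean of the LPS sensing list (7.43), array 2 for Atf3 (7.02), array 4 for H2bc14 (9.08) and for the mean of the inhibitory neuron list (9.62), and array 5 for Gh (10.85). In the LPS with IDR group they were array 1 for H2bc3 (8.11), array 2 for Orm2 (4.08), array 3 for C1s1 (5.20), Socs1 (7.06) and the mean of the NF-kB feedback list (6.76), and array 4 for Sox10 (8.35). Tex24 also differed in its peptide effect with and without LPS, by -0.63 in the interaction fitted with limma.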

How the results depend on the processing

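With limma, 0 genes were called in LPS with IDR against LPS under every alternative except 2: all probe sets gave 1, a probe set with no gene name, and the joint fit of the 4 groups without HI gave 1, Tex24. Unadjusted counts ran from 918 with the ribosomal covariate to 3657 without LPS replicate 4. Labels number the arrays 1 to 5 in both groups, but deviations of arrays with the same number correlated at -0.09 to 0.23 and no array matched its own number best; the replicate block called 0, with 2513 at an unadjusted p under 0.05. The interaction called 0 after quantile normalisation, with the low signal filter, with all probe sets and with all 8 groups in 1 fit, and 0 to 2 when single arrays were left out. LPS against Vehicle called 86 with the Xist covariate, beside 166. Leaving out single arrays gave 503 to 596 genes for the averaged LPS effect. IDR in the uninjured hemisphere called 1 with all probe sets.

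Among 120 genes named, 10 changed sign under some alternative. With the Xist covariate and in high-Xist arrays alone, Lcn2 was -0.15 and -0.16, Slc40a1 0.0014 and 0.0059, Slc16a4 0.23 and 0.25, Rasgrp3 0.13 and 0.14, and Steap4 -0.11 and -0.12. With the ribosomal covariate and without LPS arrays 1 and 5, an alternative added after the data were seen, Ifitm3 was 0.065 and 0.052, Tek -0.065 and -0.14 and Gh 0.40 and 0.037; Tek was -0.066 with array weights. Leaving out single arrays gave -0.17 to 0.16 for Lcn2, -0.26 to 0.22 for Iigp1, -0.16 to 0.092 for Irgm1, -0.081 to 0.17 for Tek, -0.26 to 0.026 for Slc16a4 and -0.17 to 0.065 for Rasgrp3. The cause of these sign changes was not tested. The fits add a covariate or leave out arrays, and sex and pretreatment were partly confounded. The Xist covariate and the high-Xist arrays gave nearly the same estimate, which rests mainly on peptide arrays 3 and 4.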
